A study of Mus musculus with 383 samples.

Results

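The cells described here are Epcam-negative tumour cells of mouse skin squamous cell carcinoma, divided by Itgb3, the gene of integrin β3 (CD61). They were chosen by measured values. A cell counted as Itgb3-expressing with at least 30 CPM of Itgb3 (counts per 1000000 gene reads of that cell), and as Itgb3-zero with 0 reads of the gene. Of 310 wells labelled as Epcam-negative single cells, 47 were left out by a filter that required 100000 gene reads, 2000 detected genes, no more than 20% mitochondrial and no more than 50% spike-in reads. The others held 29 Itgb3-expressing cells, 200 Itgb3-zero cells, and 34 cells between the groups that had a read of Itgb3 but less than 30 CPM. The series has 383 wells in all, 70 of them labelled as Epcam-positive single cells, 62 of which passed the same filter.

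Every cell came from skin tumours of mice whose engineered alleles include Lgr5CreER, p53fl/fl and Rosa26-YFP+/+, so the 2 groups compared share their genotype, and the age of the mice is not stated. Recombination was driven by Cre under Lgr5, a gene of hair follicle stem cells, and YFP marks recombined cells. Dissociated YFP+ cells were sorted as Epcam+ or Epcam- and sequenced with a modified Smart-seq2 protocol, which amplifies full-length cDNA. The series' title names transition states of tumour cells during EMT, the epithelial to mesenchymal transition, and the comparison here asks how cells with Itgb3 transcript differ from cells without any detected. The labels name no animal or culture. The cells therefore form 1 sample, a cell is not a replicate of a group, and no test between the groups was made.

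Integrins are paired α and β chains that anchor cells to the extracellular matrix and signal from it. Integrin β3 pairs with αv (Itgav) to form a receptor for matrix proteins that carry the RGD motif, such as vitronectin, fibronectin and osteopontin, and with αIIb (Itga2b) in platelets. In carcinomas αvβ3 is known for its association with migration, invasion and stem-like behaviour. CD51 (αv), CD61 (β3) and CD106 (Vcam1) are used as surface markers to separate Epcam-negative tumour cells into states of the transition.

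The groups were close in depth but not equal. The median cell had 451784 gene reads among expressing cells and 400158 among zero cells, with ranges of 148530 to 788800 and 104330 to 900492. At an equal depth of 100000 reads, the median cell had 5632 and 5190 genes detected. Gene reads per spike-in read, a measure of RNA content, had medians of 181.4 and 137.8, and the mitochondrial share had medians of 4.20% and 4.45%. All cells sat on 1 plate. Of its columns, 1 to 12 held 14 of the expressing cells, and 13 to 24 held 15 expressing and 95 zero cells. Of the wells labelled as holding 0 cells, the Epcam-negative one had 4018 gene reads and the Epcam-positive one 99241, close to the depth of a shallow cell, with 896 reads of Krt14 and 0 of Itgb3.

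Itgb3 lies on chromosome 11 of GRCm38, from 104608000 to 104670476. Summed over cells, it stood at 86.1 CPM (1123 reads, interval 81.2 to 91.3) in expressing cells and 11.5 CPM (170 reads) in the cells between. All intervals given are 95% intervals. Those of levels and ratios cover counting error of reads only. Those of shares of cells treat each cell as an independent draw, so their overlap or separation is no test between the groups. Single expressing cells ran from 30.4 to 389 CPM with a median of 68.1 CPM. These levels chose the cells and are no finding. Just inside the limit lay cells of 30.4, 30.7 and 32.8 CPM, and just outside it cells of 29.5, 29.1 and 24.8 CPM, so the groups are ranges of a continuous level. The expressing cells held 86.9% of all Itgb3 reads of kept Epcam-negative cells. A count of 0 reads allows up to 3 reads, which is 3.33 to 28.8 CPM depending on the depth of the cell, with a median limit of 7.50 CPM. In 140 of the 200 zero cells that limit was under 10 CPM, and in the others a level of 10 CPM could have gone unseen. The 62 Epcam-positive cells together had 2 reads of Itgb3, or 0.0805 CPM.

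**Figure D1:**
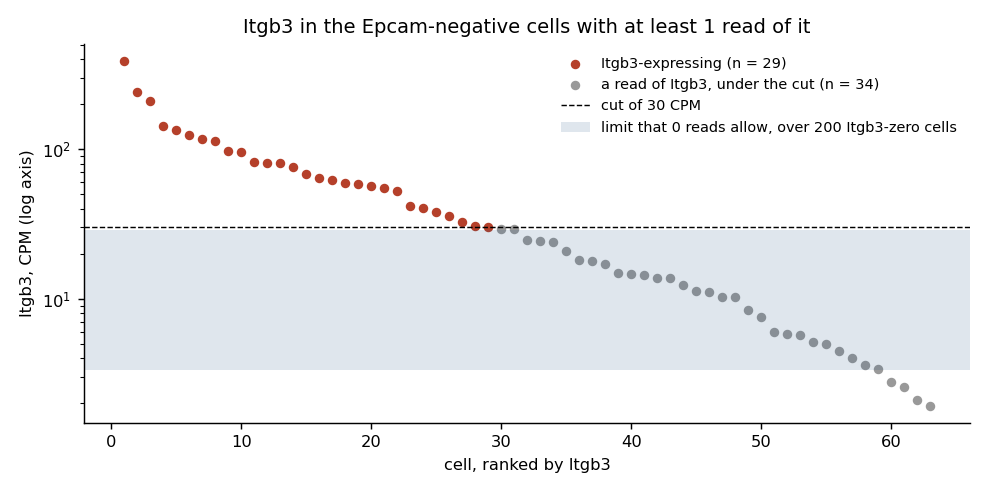
Itgb3 level (CPM, log axis) of the 63 kept Epcam-negative cells with at least 1 read of it, ranked. The level falls without a gap across the dashed limit of 30 CPM, and the shaded band shows the levels, 3.33 to 28.8 CPM, up to which the 200 cells with 0 reads could lie.

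Itgav, the partner of β3, and Vcam1, the other surface marker of the transition, had summed levels close to each other in the 2 groups, but the small difference in Vcam1 had no stable sign. Itgav, the αv chain, stood at 187.1 against 156.7 CPM (expressing against zero, summed reads), a log2 ratio of 0.25 (interval 0.19 to 0.32). Its level ran from 0 to 437 CPM (median 157.2) in the 29 expressing cells. In the 200 zero cells it ran from 0 to 1061 CPM (median 111.03), a range that holds all of the expressing cells. Vcam1, a cell adhesion molecule of the immunoglobulin family, stood at 131.1 against 136.7 CPM, a log2 ratio of -0.06 (interval -0.13 to 0.01). Single cells ran from 0 to 1290.5 CPM (median 5.33) in the 29 expressing cells. In the 200 zero cells they ran from 0 to 1938 CPM (median 6.01), again a range that holds all of the expressing cells. The ratio of Vcam1 was 0.42 and -0.63 in the sets of plate columns. In the expressing group 38.2% of its reads came from 1 cell, without the top cells the ratio was -0.55, and with an Itgb3 limit of 50 CPM it was -0.89. With every cell thinned to 100000 reads and a gene called present at 5 reads or more (50 CPM), Itgav was present in 82.8% of expressing and 68.5% of zero cells, and Vcam1 in 10 of 29 expressing and 67 of 200 zero cells. The shares for Vcam1 were 34.5% (interval 17.9 to 54.3) and 33.5% (interval 26.998 to 40.5). Both genes together were present in 10 of 29 and 57 of 200 cells. Vcam1 without Itgav was seen in 0 of 29 expressing cells, which allows a share of up to 10.3%, and in 10 of 200 zero cells. In Epcam-positive cells Itgav was present in 32 of 62, and Vcam1 in 1 of 62.

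Other integrin chains went in both directions. Itgb5, the β5 chain that also pairs with αv, was higher in expressing cells at 264.7 against 157.9 CPM (log2 ratio 0.74), while Itgb1, the common β1 chain, was at 981 against 1130.5 CPM (-0.20). Itga5, which with β1 forms a fibronectin receptor, stood at 251.1 against 141.9 CPM (0.82) and was present in 93.1% of expressing and 54.5% of zero cells. The difference in Itga5 sat in plate columns 1 to 12, with a log2 ratio of 1.28 there and 0.03 in columns 13 to 24. Itga11, a collagen receptor chain, had a log2 ratio of 1.10. The laminin-binding chains of epithelia were lower in expressing cells: the log2 ratio was -1.42 for Itga3, -1.39 for Itga6 and -1.16 for Itgb4, the β chain of hemidesmosomes. Itga6 was present in 8 of 29 expressing and 93 of 200 zero cells. The β chains Itgb6 and Itgb8, further partners of αv, were under 10 CPM in the 2 groups pooled, as was Itga2b at 5.22 and 8.80 CPM.

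Across all genes, more were lower than higher in Itgb3-expressing cells. Of 8742 genes with at least 10 CPM in the 2 groups pooled, 310 were 2-fold or more higher in expressing cells (3.55%) and 861 were 2-fold or more lower (9.85%), with a median log2 ratio of -0.14. Ratios are log2 of (CPM in expressing cells + 1) over (CPM in zero cells + 1). Single cells held large shares of the reads of the 29 expressing cells. In the genes called higher, the expressing cell with most reads held a median of 28.01% of the group's reads. Without that cell of each gene and group, 47.1% of the 310 were still 2-fold higher. Leaving out 1 cell takes more from 29 cells than from 200, and it moved the median of all genes to -0.35, so it tends to lower ratios and says nothing of the genes called lower. Of the 310, 77.7% were higher in both sets of plate columns and 88 genes by 2-fold in both. Of the 861, 839 were lower in both sets and 399 by 2-fold in both. Scaling by the median of ratios moved the median of all genes to -0.03 and gave 423 higher and 704 lower genes.

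**Figure D2:**
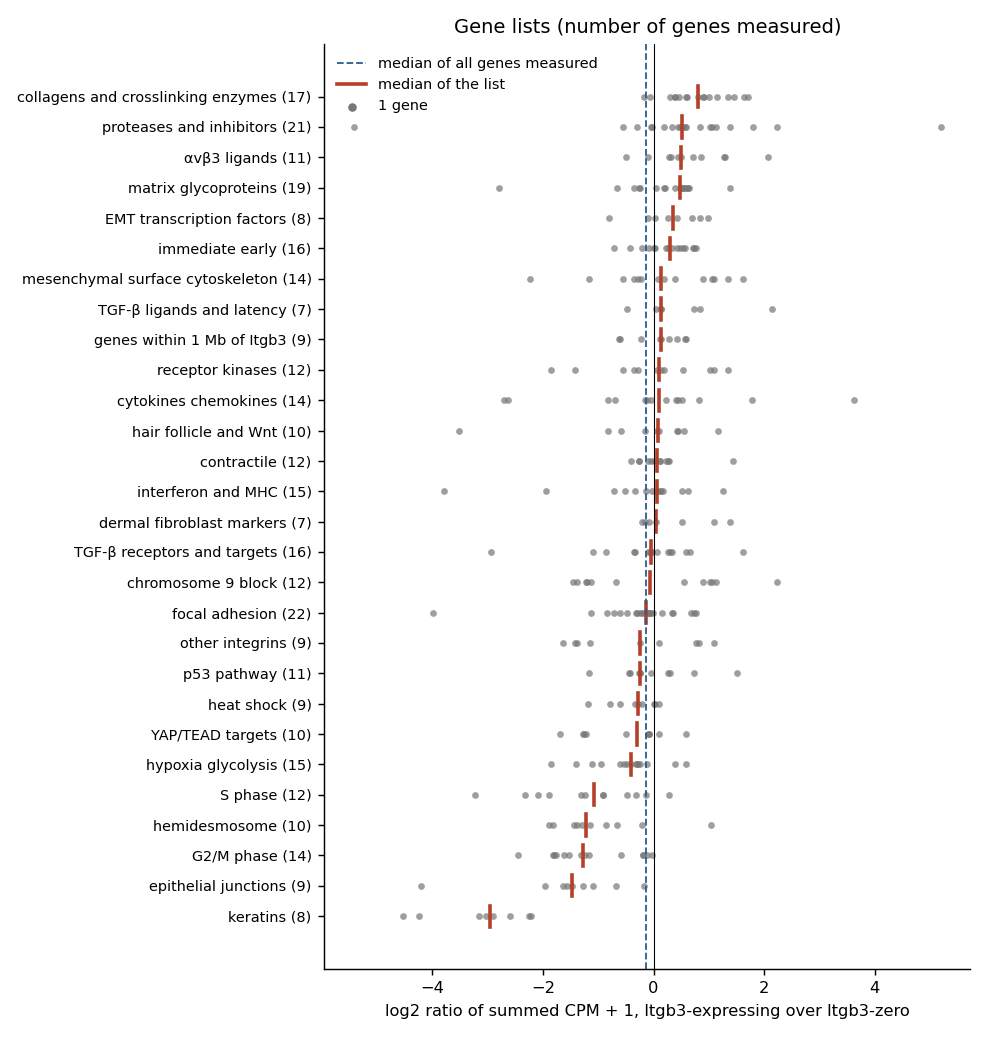
Log2 ratio of summed CPM + 1, Itgb3-expressing over Itgb3-zero cells, for each measured gene of the gene lists with at least 5 measured genes (grey points), with the median of each list (red bar) and of all genes (dashed line, -0.14). Collagens lie farthest to the right with a median of 0.81, and keratins farthest to the left with -2.96.

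Most measured extracellular matrix genes were higher in Itgb3-expressing cells, with a larger median for collagens than for glycoproteins. Of 17 measured collagens and crosslinking enzymes, 15 had the higher level in expressing cells, 6 of them at least 2-fold, none was 2-fold lower, and the median log2 ratio was 0.81. Over all genes, 3.55% were 2-fold higher and 9.85% were 2-fold lower, with a median of -0.14. By plate position, the median of the collagen list was 1.15 for columns 1 to 12 against 0.39 for columns 13 to 24. Both chains of basement membrane collagen IV were 2-fold higher. Col4a1 stood at 347 against 126.5 CPM with a log2 ratio of 1.45 (interval 1.40 to 1.50), and Col4a2 at 708 against 278.6 CPM with 1.34 (interval 1.31 to 1.38). Col4a1 ran from 0 to 1838 CPM (median 126.4) in the 29 expressing cells and from 0 to 2304 CPM (median 14.1) in the 200 zero cells. The ranges overlapped, but the typical expressing cell was far above the typical zero cell, and the log2 ratio of Col4a1 was 1.29 and 1.60 in the 2 sets of plate columns. Among the fibrillar collagens, Col5a3 had a log2 ratio of 1.71 and Col5a2 of 1.01. Col1a1, the main chain of collagen I, stood at 4005 against 2162 CPM (0.89), and its difference was 1.40 in columns 1 to 12 but 0.07 in columns 13 to 24. Col6a3, a chain of the microfibrillar collagen VI, had 1.64 over all cells and -0.80 in columns 13 to 24, so its direction was not shared. Of 19 measured matrix glycoproteins and proteoglycans, 14 were higher, but only 1 was 2-fold higher and 1 was 2-fold lower. Their median was 0.48, with 0.48 and 0.22 in the sets of plate columns. Without the top cells, a step that tends to lower ratios, the median was 0.07. Sparc, a collagen-binding matricellular protein, stood at 12081 against 7844 CPM, and Bgn (biglycan) at 3829.9 against 2724 CPM. The small proteoglycan Ogn (osteoglycin) went the other way, at 44.8 against 317 CPM (-2.80).

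The genes of proteins that αvβ3 binds were mostly higher. Of 17 ligands listed, 11 were measured, 9 had the higher level in expressing cells, 3 of them at least 2-fold. Their median was 0.50, with 0.63 and 0.23 in the sets of plate columns. Over all genes, 3.55% were 2-fold higher, and the median was -0.14. Spp1 (osteopontin), a secreted RGD protein, stood at 5229 against 1240.3 CPM, a log2 ratio of 2.07 (interval 2.06 to 2.09). Its level ran from 0 to 36425 CPM (median 163.3) in the 29 expressing cells and from 0 to 28073 CPM (median 27.8) in the 200 zero cells. At least 1000 CPM was reached in 11 of 29 expressing and 40 of 200 zero cells (a level chosen after the values were seen). The shares were 37.9% (interval 20.7 to 57.7) and 20% (interval 14.7 to 26.2), with overlapping intervals. Spp1 was present in 51.7% of expressing and 44.5% of zero cells. Thbs2, a thrombospondin, stood at 1655 against 683 CPM with a log2 ratio of 1.28 (interval 1.25 to 1.30). Thbs2 in single cells ran from 7.18 to 7839 CPM (median 1471) in the 29 expressing cells and from 0 to 7003 CPM (median 260.1) in the 200 zero cells, and it was present in 93.1% of expressing and 74% of zero cells. Fbn1 (fibrillin 1), which forms microfibrils, had a log2 ratio of 0.86, Fn1 (fibronectin) of 0.32 and Postn (periostin) of 0.44. Edil3, a secreted RGD protein, had 1.28 over all cells but -0.39 in columns 13 to 24. The cysteine-rich matricellular genes Ccn1 and Ccn2 had -0.10 and -0.49. Vitronectin (Vtn) and the fibrinogen genes Fga, Fgb and Fgg were under 1 CPM in both groups.

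Receptors for platelet-derived growth factor were higher in expressing cells as a pair. Pdgfrb stood at 327 against 128.02 CPM, a log2 ratio of 1.35 (interval 1.30 to 1.40). In single cells it ran from 0 to 1879 CPM (median 254.4) in the 29 expressing cells and from 0 to 1605 CPM (median 45.5) in the 200 zero cells. Pdgfra stood at 462 against 216.2 CPM, a log2 ratio of 1.09 (interval 1.05 to 1.13). Its cells ran from 0 to 2115 CPM (median 435) in the 29 expressing cells and from 0 to 1682 CPM (median 58.04) in the 200 zero cells. A level of 100 CPM, chosen after the values were seen, was reached for Pdgfra in 22 of 29 expressing and 82 of 200 zero cells, and for Pdgfrb in 20 and 71. Both sets of plate columns gave Pdgfrb above 1 on the log2 scale (1.28 and 1.41), and Pdgfra close to it (1.23 and 0.96). In the 62 Epcam-positive cells Pdgfra stood at 14.1 CPM and Pdgfrb at 1.01 CPM. Egfr, the epidermal growth factor receptor, had a log2 ratio of 1.02. In the other direction, Met, the receptor of hepatocyte growth factor, stood at 36.8 against 135.98 CPM (-1.86) and was present in 8 of 29 expressing and 100 of 200 zero cells. Fgfr2, a fibroblast growth factor receptor of epithelial cells, had -1.41. Of 12 measured receptor kinases 3 were 2-fold higher and 2 were 2-fold lower, with a median of 0.10. For all genes these values were 3.55%, 9.85% and -0.14.

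**Figure D3:**
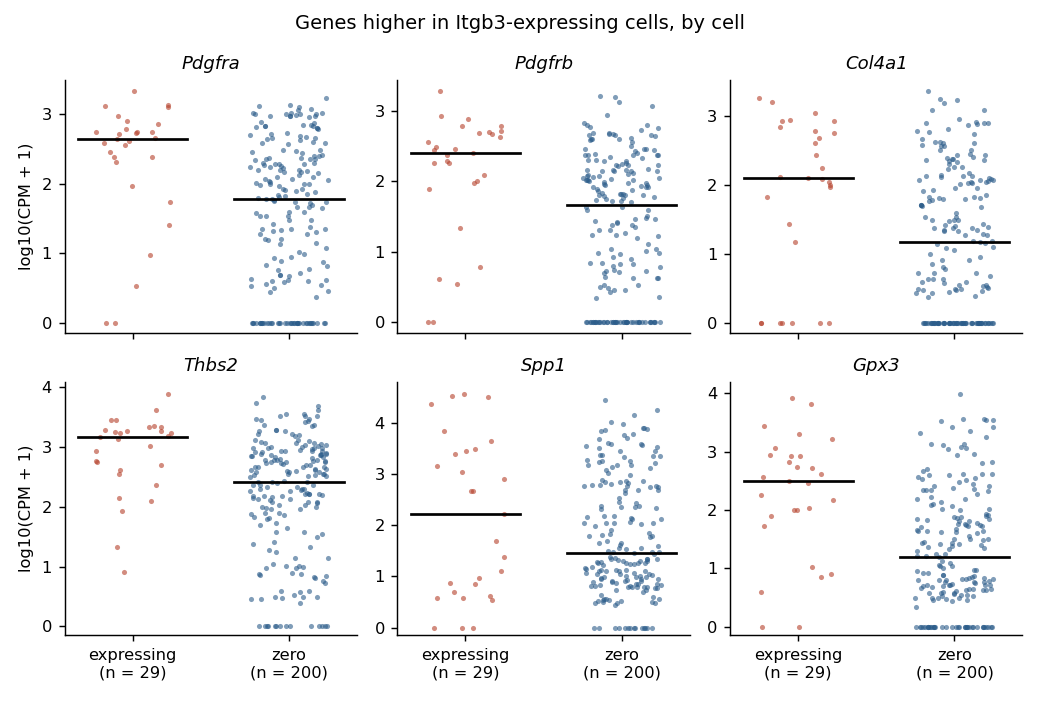
Level of 6 genes in each Itgb3-expressing cell (29, red) and Itgb3-zero cell (200, blue), as log10(CPM + 1); black bars are medians, and the horizontal spread of points within a group has no meaning. Every gene shows overlapping groups, and the median of the expressing cells is above that of the zero cells in all 6, for example 435 against 58.04 CPM for Pdgfra.

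Vimentin lay close to equal levels, and most transcription factors of the transition were higher in expressing cells by less than 2-fold. Vim (vimentin), the intermediate filament protein of mesenchymal cells, stood at 5963 against 5612 CPM (log2 ratio 0.09) and ran from 1502 to 15210.3 CPM (median 4807) in the 29 expressing cells and from 10.3 to 18984 CPM (median 5516) in the 200 zero cells. Of 14 measured mesenchymal surface and cytoskeletal genes, 4 were 2-fold higher (Fap, Pdgfrb, Pdgfra and Nt5e) and 2 were 2-fold lower (Nes at -2.23 and Cdh2, N-cadherin, at -1.17), with a median of 0.14. Over all genes, 3.55% were 2-fold higher and 9.85% were 2-fold lower. Of 8 measured EMT transcription factors, 6 had the higher level in expressing cells. Their median was 0.34, or 0.41 and 0.08 in the sets of plate columns, against -0.14 for all genes. None reached 2-fold in either direction. Zeb1, a repressor of epithelial genes, came closest at 84.3 against 42.4 CPM (0.98), with 1.02 and 0.95 in the sets of plate columns. Zeb1 was present in 15 of 29 expressing and 62 of 200 zero cells and in 0 of 62 Epcam-positive cells. Snai1 had 0.84 and Prrx1 0.70, whereas Zeb2, Twist1 and Snai2 had 0.02, 0.26 and -0.09. Over the settings tried Snai1 ran from -0.18 to 1.47, with 1 change of sign. Contractile genes had a median of 0.06. Acta2 (smooth muscle actin) stood at 2633 against 2194 CPM, but 1 expressing cell held 52.9% of its reads, and without the top cells its log2 ratio was -0.61.

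A rule for single genes over the whole table picked the 15 highest ratios among 875 genes that were higher in expressing cells in both sets of plate columns and in the mean of cells, present in at least 30% of expressing cells, at 30 CPM or more, and with no cell holding over 25% of the group's reads. Presence in expressing cells and the sign in the plate columns were part of the rule, so for these genes they add no support. Adra2a, the α2A adrenergic receptor, led at 101.2 against 15.8 CPM (2.61) and was present in 14 of 29 expressing and 23 of 200 zero cells. Ednra, the endothelin A receptor, stood at 192.9 against 51.8 CPM (1.88). Rgs2, which turns off G protein signals, stood at 1275 against 359 CPM, a log2 ratio of 1.83 (interval 1.80 to 1.85). Rgs2 ran from 0 to 6831 CPM (median 394) in the 29 expressing cells and from 0 to 3191 CPM (median 56.5) in the 200 zero cells. Grem1, a secreted antagonist of BMP, stood at 672 against 207.4 CPM (1.69) and was present in 21 of 29 expressing and 74 of 200 zero cells. Tnfsf11, the cytokine RANKL, stood at 117.3 against 34.8 CPM (1.72).

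Secreted antioxidant enzymes formed a second pair among the 15. Gpx3, the extracellular glutathione peroxidase, stood at 974 against 299.1 CPM with a log2 ratio of 1.70 (interval 1.67 to 1.73). Its cells ran from 0 to 8513 CPM (median 312) in the 29 expressing cells and from 0 to 9910.0 CPM (median 14.7) in the 200 zero cells, and it was present in 23 of 29 expressing and 67 of 200 zero cells. Sod3, the extracellular superoxide dismutase, stood at 358 against 107.8 CPM (1.72) with medians of 103.3 and 1.83 CPM. The rest were Fmo1 (1.93), a flavin-containing monooxygenase, the histone deacetylase Hdac5 (1.84), the clock repressor Nr1d1 (1.84), the immune checkpoint protein Vsir (1.83), Tmem86a (1.74), the glycogen phosphorylase Pygl (1.62), Tmem119 (1.49) and the protease inhibitor Serpina3n (1.48). Each of the 15 had cells of both groups at 0, and the highest zero cell exceeded the highest expressing cell in several, such as Adra2a at 2070.4 against 646 CPM.

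Matrix proteases were among the most uneven genes. Of 21 measured proteases and inhibitors, 16 had the higher level in expressing cells, 7 of them at least 2-fold, and 1 was 2-fold lower. The median was 0.52, and over all genes 3.55% were 2-fold higher and 9.85% were 2-fold lower. Mmp3 (stromelysin 1) stood at 9736 against 2082 CPM, a log2 ratio of 2.22 (interval 2.21 to 2.24), with 2.08 and 2.47 in the 2 sets of plate columns and 2.12 without the top cells. Single cells ran from 6.24 to 70469 CPM (median 719.6) in the 29 expressing cells and from 0 to 65384 CPM (median 49.7) in the 200 zero cells, which overlap over most of their length. Adamts5, an aggrecanase, was present in 20 of 29 expressing and 66 of 200 zero cells, with a log2 ratio of 1.05. The inhibitor Serpine2 (protease nexin 1) had 1.79. Other large ratios rested on few cells. Mmp9 (gelatinase B) stood at 298.7 against 7.16 CPM (5.20), but 1 expressing cell held 73.7% of its reads, and the ratio was -1.08 in columns 13 to 24. The collagenase Mmp13 had 1.02 over all cells, 3.57 in columns 1 to 12 and -1.92 in columns 13 to 24. Mmp10 had 1.13, and -0.10 without the top cells. Mmp12, the macrophage elastase, had -5.42 (interval -5.69 to -4.97), at 0.307 against 55.03 CPM, and was present in 11 of 200 zero cells.

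Mmp3 neighbours a group of genes that went the other way. On chromosome 9 of GRCm38, Yap1, the effector of Hippo signalling, lies from 7931999 to 8004596. Of 23 measured genes whose first coordinate lies within 5 Mb of that of Yap1, 12 were 2-fold or more lower in expressing cells and 5 were 2-fold or more higher, with a median of -1.13 (this window was chosen after the values were seen). In the gene list of the chromosome 9 block, 12 genes were measured, 6 of them higher and 6 lower. By 2-fold, 4 were higher and 5 lower, against 3.55% and 9.85% of all genes. The median of that list was -0.06, and its sign changed under 6 of 19 settings. Yap1 stood at 513 against 1191 CPM, a log2 ratio of -1.21 (interval -1.25 to -1.18). Its cells ran from 0 to 2438 CPM (median 239.6) in the 29 expressing cells and from 0 to 7982 CPM (median 318) in the 200 zero cells. A level of 1000 CPM or more was reached in 7 of 29 expressing cells and 77 of 200 zero cells, shares of 24.1% (interval 10.3 to 43.5) and 38.5% (31.7 to 45.6), which overlap. The apoptosis inhibitors Birc2 and Birc3 next to it had log2 ratios of -1.38 and -1.21, Tmem123 -1.13, Dcun1d5 -1.46, and Cfap300, a ciliary gene, -2.26. Farther off, Aasdhppt and Msantd4 had -1.87 and -2.01. The medians of single cells did not all follow. Birc2 had 106.7 and 277.1 CPM, and Birc3, Tmem123 and Cfap300 also had the lower median in expressing cells. Dcun1d5 had 223.1 and 181.3 CPM, Aasdhppt 33.7 and 23.5 CPM, and Msantd4 9.94 and 2.18 CPM, the reverse of their summed levels. In the same window, Mmp3, Mmp13, Mmp10, the inflammatory caspase Casp4 (1.07) and Arhgap42 (1.10) were 2-fold higher. All of the named lower genes kept their sign in both sets of plate columns. Of 10 measured genes of YAP, its TEAD partners and their targets, 4 were 2-fold lower: Yap1 itself, Tead2 (-1.27) and the targets Ankrd1 (-1.70) and Ajuba (-1.26), while the YAP paralogue Wwtr1 (TAZ) had 0.59.

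**Figure D4:**
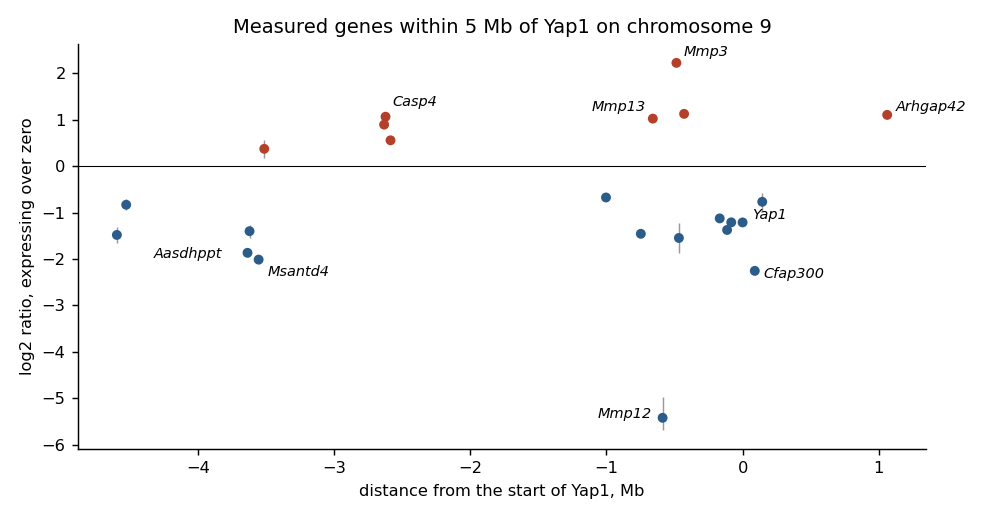
Log2 ratio (Itgb3-expressing over Itgb3-zero cells) of the 23 measured genes within 5 Mb of Yap1 on chromosome 9, against the distance of their first coordinate from that of Yap1 in Mb; bars are 95% intervals for counting error, blue points are lower and red points higher in expressing cells. Both directions occur in the window, with Mmp3 at 2.22 less than 1 Mb from Yap1 at -1.21. The measured genes from Tmem123 to Cep126, Yap1 among them, were all lower.

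Epithelial genes were lower in Itgb3-expressing cells. All 8 measured keratins, the intermediate filament proteins of epithelia, were 2-fold or more lower, with a median of -2.96, or -3.91 and -2.20 in the sets of plate columns. The share of all genes 2-fold lower was 9.85%. Krt14, a keratin of basal keratinocytes, stood at 449 against 2149 CPM, a log2 ratio of -2.26 (interval -2.29 to -2.22), and Krt5, its partner, at 77.01 against 635 CPM (-3.03). Krt14 ran from 0 to 4502 CPM (median 29.6) in the 29 expressing cells and from 1.85 to 56264 CPM (median 43.8) in the 200 zero cells. The medians were near each other, and the difference lay in the upper cells. At least 1000 CPM of Krt14 was found in 5 of 29 expressing cells, or 17.2% (interval 5.85 to 35.8), and in 54 of 200 zero cells, or 27% (20.98 to 33.7). The intervals of these shares overlap, which is no test between the groups. With those cells left out of both groups, an alternative chosen after the values were seen that drops 5 and 54 cells, Krt14 had a log2 ratio of -0.48, Krt5 -0.37, and the keratin median was -1.91. In the Epcam-positive well labelled as holding 0 cells Krt14 stood at 9029 CPM, and whether reads passed between wells was not tested.

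The simple-epithelium keratins kept their difference without the Krt14-high cells. Krt18 stood at 2.30 against 75.2 CPM (-4.53), and Krt8 at 9.59 against 93.6 CPM (-3.16). Without cells of at least 1000 CPM of Krt14 the ratios were -4.66 and -3.35. Krt18 was present in 0 of 29 expressing and 41 of 200 zero cells (0 of 29 allows a share of up to 10.3%), and Krt8 in 2 of 29 expressing and 38 of 200 zero cells. Of 9 measured junction genes, 7 were 2-fold lower, with a median of -1.48 over all cells and -0.53 without the Krt14-high cells. Over all genes, 9.85% were 2-fold lower. Epcam stood at 0.690 against 30.3 CPM (-4.21), and no expressing cell but 10 of 200 zero cells had 50 CPM of it or more. Without the Krt14-high cells its ratio was 0.19. The desmosomal genes Dsp and Dsc3 likewise changed sign, from -1.63 to 0.28 and from -1.95 to 0.68. Trp63, the regulator of basal keratinocytes, changed from -1.49 to 1.47, and was present in 5 of 29 expressing and 32 of 200 zero cells. Of 10 hemidesmosome genes, 6 were 2-fold lower and 1, the anchoring fibril collagen Col7a1, was 2-fold higher (1.04, but -0.10 in columns 13 to 24), with a median of -1.22.

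**Figure D5:**
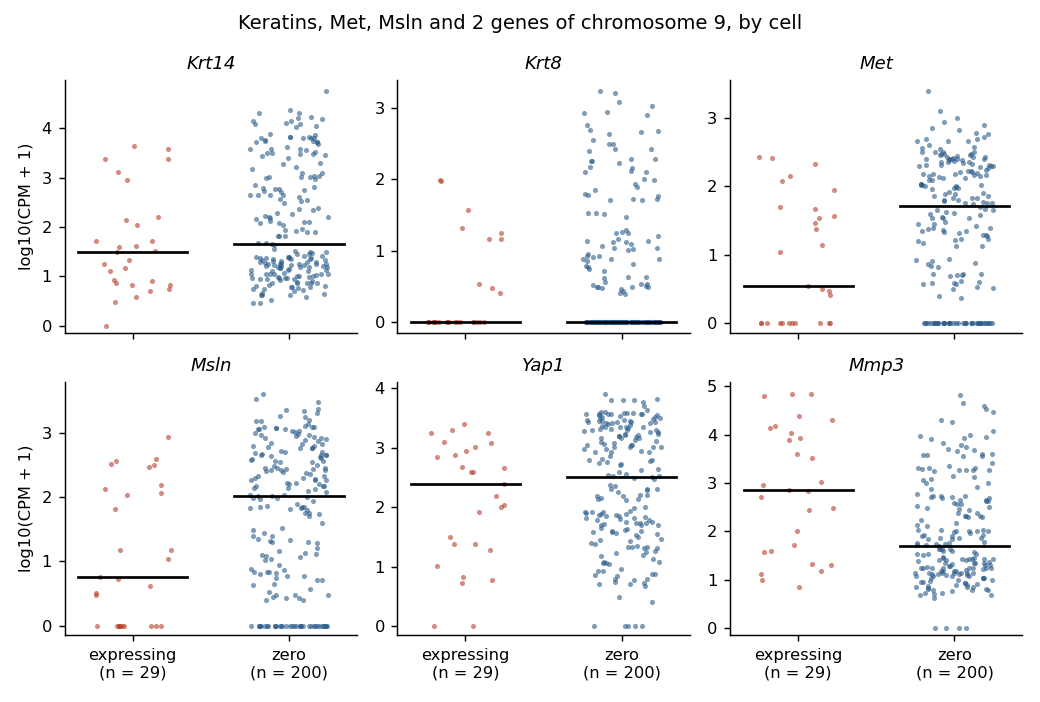
Level of 6 genes in each Itgb3-expressing cell (29, red) and Itgb3-zero cell (200, blue), as log10(CPM + 1); black bars are medians, and the horizontal spread of points within a group has no meaning. Krt14 and Yap1 have close medians and differ in the number of high cells, Krt8 is at 0 in most cells of both groups, Met and Msln have lower medians in expressing cells, and Mmp3 has a higher one.

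Genes of cell division were lower in expressing cells. Of 14 measured genes of the G2 and M phases, 9 were 2-fold lower, with a median of -1.28, and of 12 genes of S phase 6 were 2-fold lower, with a median of -1.08. The share of all genes 2-fold lower was 9.85%. Mki67 (Ki-67) stood at 9.05 against 33.3 CPM (-1.77), and Mcm2, a subunit of the replicative helicase, at 3.83 against 44.5 CPM (-3.23). A single expressing cell held 89.3% of the group's reads of the G2 and M list. Without the cell with most reads of each gene, a step that tends to lower ratios, the median of the list was -3.98. In plate columns 1 to 12 the median was -0.75, and in columns 13 to 24 it was -4.21. The sum of the list per cell had medians of 17.5 CPM in expressing and 24.6 CPM in zero cells. Mki67 or Top2a was present in 2 of 29 expressing cells, a share of 6.90% (interval 0.846 to 22.8), and in 40 of 200 zero cells, 20% (interval 14.7 to 26.2). The intervals overlap. Mcm2 was present in 1 of 29 expressing and 42 of 200 zero cells. Cdkn1c (p57), an inhibitor of cell division, was also lower, at 31.4 against 127.5 CPM (-1.99), and Cdkn1a (p21) had -0.05.

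The same rule for single genes picked the 15 lowest ratios among 1497 genes that were higher in zero cells. Here presence in zero cells and the sign in the plate columns were part of the rule, so they add no support. Ogn led with -2.80, followed by Krt14 and Cfap300. Msln (mesothelin), a surface glycoprotein, stood at 102.9 against 407 CPM, a log2 ratio of -1.97 (interval -2.05 to -1.89). Its cells ran from 0 to 848 CPM (median 4.68) in the 29 expressing cells and from 0 to 4080.4 CPM (median 104.7) in the 200 zero cells, and the plate columns gave -1.97 and -1.98. Tfrc, the transferrin receptor, stood at 28.7 against 102.9 CPM (-1.81) and Kitl, the ligand of the receptor Kit, at 20.6 against 71.5 CPM (-1.75). Prmt5, an arginine methyltransferase, had -2.09 and was present in 3 of 29 expressing and 62 of 200 zero cells. Utp4, a ribosome biogenesis factor, had -2.02, the sterol enzyme Sc5d -1.93, Eef1e1 -1.78, the semaphorin co-receptor Plxna1 -1.71 and Dynap -1.83. Cdkn1c, Aasdhppt and Met are the others of the 15, and the medians of Aasdhppt went the other way, as given above.

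Cytokine genes did not move together. Of 14 measured, 2 were 2-fold higher and 2 were 2-fold lower, with a median of 0.09. Of all genes, 3.55% were 2-fold higher and 9.85% were 2-fold lower. Il6 stood at 34.5 against 220.1 CPM (-2.64), yet was present in 5 of 29 expressing and 43 of 200 zero cells, shares of 17.2% (interval 5.85 to 35.8) and 21.5% (interval 16.02 to 27.8), and the highest zero cell reached 7327 CPM against 251.7 CPM in expressing cells. The neutrophil-attracting chemokine Cxcl5 had 1.77, with -1.94 in columns 13 to 24, and Cxcl1 had 0.40. Il33 had 3.63, but 1 cell held 98.9% of the expressing group's reads and the ratio was -1.93 without the top cells. In the TGF-β family, Inhba, which encodes the activin A subunit, stood at 472 against 106.5 CPM (2.14). In the expressing group 56.7% of its reads came from 1 cell, and without the top cells the ratio was 1.14. The ligands Tgfb2 and Tgfb3 had 0.84 and 0.73, but Tgfb2 ran from -0.68 to 1.60 over the settings tried, with 1 change of sign. The list of 7 measured TGF-β ligands and latency genes had a median of 0.13, and -0.10 without the top cells. The list of 16 measured TGF-β receptors and targets had a median of -0.04. There Id1 was 2-fold higher (1.61, but -0.62 in columns 13 to 24) and Smad3 and Bambi were 2-fold lower (-1.09 and -2.94).

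Several further lists had few genes past 2-fold. Of all genes, 3.55% were 2-fold higher and 9.85% were 2-fold lower, with a median of -0.14. None of 16 immediate early genes, which respond to dissociation stress, reached 2-fold, and their median was 0.30. Of 22 focal adhesion genes, which link integrins to actin, none was 2-fold higher and 2 were 2-fold lower. The 2 were Pxn (paxillin, -1.13) and the epithelial kindlin Fermt1 (-3.98). The median of -0.14 and the share of lower genes in this list were near those of all genes. Of 15 hypoxia and glycolysis genes, 3 were 2-fold lower, among them Car9 (-1.86), and the median was -0.40. Heat shock genes had a median of -0.28, p53 pathway genes of -0.25, and interferon and MHC genes of 0.06, where Irf1 stood at 528 against 221.1 CPM (1.25). In the list of hair follicle and Wnt genes, with a median of 0.08, Lgr5 itself stood at 0.153 against 12.2 CPM (2 reads in the expressing cells), and was present in 0 of 29 expressing and 10 of 200 zero cells. Of 46 annotated genes within 1 Mb of Itgb3, 9 were measured and none differed by 2-fold. Their median was 0.13.

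Markers of other cell types, among them platelets and osteoclasts, which carry integrin β3, had low summed levels in both groups. Platelet and megakaryocyte markers summed to 16.6 CPM in expressing and 13.5 CPM in zero cells. None of the 12 was measured, and Gp9, Treml1, Tubb1 and Nrgn had 0 reads in both groups. In single cells the sum ran from 0 to 91.8 CPM and from 0 to 295.3 CPM, and at least 1 of the 12 genes was present in 13.8% (interval 3.89 to 31.7) of expressing and 6.50% (interval 3.51 to 10.9) of zero cells. Of 8 osteoclast markers, 2 were measured (Acp5 at 40.1 against 43.9 CPM and Ctsk at 18.9 against 10.4 CPM), the fusion genes Ocstamp and Dcstamp had at most 2 reads in a group, and the sum of the 8 ran from 0 to 761 CPM and from 0 to 904 CPM per cell. Endothelial markers summed to 5.29 and 10.8 CPM with Cdh5, Kdr, Emcn and others at 0 reads in expressing cells. Immune markers summed to 29.5 and 27.3 CPM, with Ptprc (CD45) at 0 reads in expressing cells. At least 1 of the 12 immune genes was present in 7 of 29 expressing cells, or 24.1% (interval 10.3 to 43.5), in 26 of 200 zero cells, or 13% (interval 8.67 to 18.5), against 11 of 62 in the Epcam-positive sort. Of these genes Csf1r (named after its values were seen) stood at 14.9 against 0.968 CPM and was present in 4 of 29 expressing and 1 of 200 zero cells. Melanocyte, erythroid, Schwann cell and skeletal muscle lists had no measured gene. The part of such cells in the differences above was not tested.

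Markers of dermal fibroblasts and pericytes overlap with genes of mesenchymal tumour cells. Of 10 dermal fibroblast markers 7 were measured, with a median of 0.04. Of these 7, 2 were 2-fold higher (Pdgfra, and Lum with 88.2% of reads in 1 cell), against 3.55% of all genes. The sum of the 10 per cell ran from 40.6 to 42530 CPM (median 1917) in expressing and from 14.3 to 32965 CPM (median 1529) in zero cells. Clec3b and Dpp4 had 0 reads in expressing cells. Of 8 pericyte markers, 2 were measured. Rgs5 stood at 51.2 against 9.19 CPM, with 99.7% of the reads in 1 expressing cell, and Cspg4 (NG2) at 56.3 against 35.2 CPM (0.66), while Kcnj8, Abcc9 and Des had 0 reads in expressing cells. The sum of the 8 ran from 0 to 5164 CPM (median 46.05) and from 0 to 8770 CPM (median 12.95). Their part in the higher Pdgfrb, Ednra and collagen IV levels was not tested. All cells had been sorted for YFP.

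The cells between the groups show how these differences run along Itgb3. Levels are given in order for the 200 cells with 0 reads, 15 cells above 0 and under 10 CPM, 19 cells from 10 to under 30 CPM, 21 cells from 30 to under 100 CPM and 8 cells of 100 CPM or more. The last steps hold few cells, single cells weigh on their sums, and their order is a description. Grem1 summed to 207.4, 148.6, 342, 554 and 995 CPM, while its median cell stood at 7.04, 13.5, 182.996, 310.3 and 275.05 CPM, so the typical cell was at a like level in the last steps. Mmp3 summed to 2082, 18649, 36759, 8423 and 13369 CPM, where 1 cell between the groups reached 307517 CPM. Its median cell stood at 49.7, 190.9, 1038, 694 and 4786 CPM, highest in the 8 cells with most Itgb3, so sums and medians of Mmp3 do not share an order. Spp1 summed to 1240.3, 1365, 3035, 6451 and 1848 CPM with a median cell at 27.8, 237.4, 817, 788 and 5.19 CPM. In those 8 cells the median of Spp1 was thus below that of the zero cells, with 1 cell at 32999 CPM. Sod3 had a median cell at 1.83, 5.15, 123.6, 103.3 and 78.2 CPM, and Gpx3 at 14.7, 131.3, 88.3, 312 and 420.0 CPM, above the zero cells in each step with Itgb3. Rgs2 had a median cell at 56.5, 39.1, 87.2, 526 and 207.6 CPM, highest in the step from 30 to under 100 CPM. Adra2a had a median cell at 0, 0, 26.7, 93.6 and 0 CPM. Fmo1, Pygl and Tnfsf11 also had a median of 0 in the 8 cells with most Itgb3. Met had a median cell at 50.9, 160.8, 9.31, 12.6 and 1.05 CPM, lower than in zero cells in the steps from 10 CPM on. Epcam summed to 30.3, 2.09, 0.620, 0.731 and 0.578 CPM, with a median cell at 0 in every step. It was present in 1 of 34 cells between the groups and in 11 of 200 zero cells. Krt14 summed to 2149, 842, 1820.3, 608 and 9.25 CPM and did not fall evenly. Yap1 summed to 1191, 466, 687, 395 and 840 CPM, with a median cell at 318, 11.8, 163.9, 100.8 and 617 CPM. Its median was thus highest in the 8 cells with most Itgb3, so low Yap1 did not follow the level of Itgb3. Itgb5 was lowest in the 8 cells with most Itgb3, at 157.9, 160.4, 332, 330.2 and 83.5 CPM in sums and 81.2, 132.6, 271.4, 193.7 and 53.4 CPM in the median cell.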

How the data were processed

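The authors deposited 1 table of raw read counts, with a row for each gene or spike-in and a column for each of 383 wells. Per the submitters' processing notes, cutadapt 1.13, STAR 2.5.2b, HTSeq 0.6.0 and the mouse build GRCm38 were used. For the annotation release and the strand setting the entry is: not given in the sources used here. Counts of overlapping genes and of near-identical keratin genes are therefore uncertain. GENCODE vM21 gave symbols and positions for 49326 of 49585 gene identifiers and none for 259. The 92 spike-ins were kept out of CPM. No pair of wells held identical counts.

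For each group, reads were summed over its cells and scaled to CPM. Ratios carried a pseudocount of 1 CPM, and genes counted as measured from 10 CPM in both groups pooled. Each cell was thinned once (seed 1) to 100000 gene reads before presence, at 5 reads, was scored. The 95% intervals are exact (Poisson for levels, Clopper-Pearson for shares of cells, conditional binomial for ratios). The protocol has no molecular identifiers, so the intervals of levels and ratios and the limit of 3 reads for a count of 0 hold for counting error alone. Intervals of shares treat cells as independent draws. The calculation was tested on simulated data. Doublets had been gated out at sorting, per the labels, and no caller was applied.

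The members, 39 gene lists (491 entries) and the rule for named genes were chosen with earlier results of these data known. The rule names Itgb3, Itgav, Vcam1, Epcam, Krt14 and Vim, up to 4 measured genes per list with the largest ratios, genes that go 2-fold against their list, and the 15 highest and 15 lowest genes described above, leaving out predicted, mitochondrial and ribosomal protein genes. Other list members are examples chosen after their values were seen. Alternatives were other scalings (TMM from edgeR 4.0.16 and median of ratios), pseudocounts, filters, Itgb3 limits, depths, plate columns and cells left out. Python 3.11.15, scipy 1.17.1 and R 4.3.3 were used.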

Additional observations from a re-analysis of the deposited data

Results flagged for a closer look

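The 34 kept Epcam-negative cells between the groups enter no ratio above. Together they had 11.5 CPM of Itgb3, a level above 0 that follows from how they were chosen. The well labelled as holding 50 Epcam-negative cells had 154897 gene reads and 103.3 CPM of Vcam1 (16 reads, interval 59.04 to 167.7). The wells labelled as holding 0 cells had 2 reads of Vcam1 (20.2 CPM, interval 2.44 to 72.8) in the Epcam-positive one and 0 reads in the Epcam-negative one, whose 4018 gene reads allow up to 747 CPM. The intervals overlap, which does not decide whether these wells differ, and no test between them was made.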

How the results depend on the processing

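No paired analysis was possible because the labels name no animal and no test between the groups was made. The numbers of genes 2-fold higher and lower, 310 and 861 (3.55% and 9.85% of genes measured), moved by over 1.5 times under 6 settings. A pseudocount of 10 CPM gave 1.59% and 3.81%. Of 13481 genes measured from 1 CPM, 920 and 2270 were called (6.82% and 16.8%), and of 3698 measured from 50 CPM, 2.49% and 4.68%. Without the top cell of each gene and group, which takes more from the smaller group, the shares were 1.68% and 17.7%. Plate columns 1 to 12 alone gave 498 and 1502 genes (5.80% and 17.5%), and columns 13 to 24 alone 575 and 1372 (6.46% and 15.4%), from fewer cells. Under the 13 other settings both numbers stayed within 1.5 times.

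Of the values given for named genes and lists, 28 changed sign from a difference of 2-fold or more. In plate columns 13 to 24 the log2 ratio was -0.80 for Col6a3, -0.10 for Col7a1, -1.94 for Cxcl5, -0.39 for Edil3, -0.62 for Id1, -1.65 for Il33, -2.27 for Lum, -0.11 for Mmp10, -1.92 for Mmp13, -1.08 for Mmp9 and -1.91 for Trp53inp1. Without the top cells it was -0.81 for Actg2, -1.93 for Il33, -0.89 for Lum, -0.10 for Mmp10 and -0.93 for Rgs5. Rgs5 was also at -3.82 in columns 1 to 12, -1.04 with a stricter filter on cells and -1.06 in cells of 300000 gene reads or more. An Itgb3 limit of 10 CPM gave 0.16 for Fermt1, and a limit of 50 CPM -2.14 for Il33. Without cells of Krt14 at 1000 CPM or more the log2 ratio was 0.68 for Dsc3, 0.28 for Dsp, 0.19 for Epcam, 1.25 for Krt15, 0.67 for Lama3, 0.58 for Lamb3 and 1.47 for Trp63. The cause of these changes was not tested. The list medians of collagens (0.39 to 1.15), αvβ3 ligands (0.23 to 0.63), keratins (-3.91 to -1.64) and junction genes (-1.95 to -0.53) kept their sign under the 19 settings tried. Cells of shallow depth with 0 reads of Itgb3 may hold levels that this depth cannot show.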
